A study of Mus musculus with 8 samples.

Results

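Transcription factors that set up and keep hepatocyte identity were followed in liver RNA libraries of ICR mice, an outbred strain, given Psoraleae Fructus decoction at high dose into the stomach for 30 days (treated, 4 libraries), against mice of the same strain in the control group (4 libraries), where the labels name saline. Psoraleae Fructus is the dried fruit of Psoralea corylifolia, an herbal medicine, and the series concerns liver damage by it. The genes are Cebpa, Cebpb, Hnf4a, Foxa1, Foxa2, Foxa3, Onecut1, Prox1 and Nr5a2, 9 of the 24547 genes of the deposited table, taken by gene name, and all 9 passed the filter on low counts. The labels give no sex, age, dose by mass, hour of collection or batch, and do not tie libraries to animals, so each p-value measures only how far these libraries spread, which may be technical.

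Hepatocytes are held in their state by a small network of transcription factors that bind each other's genes and, together, the enhancers of genes for secreted proteins, bile acid synthesis and intermediary metabolism. HNF4A, a nuclear receptor, and the FOXA pioneer factors are its core, the C/EBP proteins tie it to energy metabolism and the acute phase response, and NR5A2 and PROX1 act together with HNF4A on bile acid and cholesterol genes. The factors are called liver-enriched because none is made in hepatocytes alone: most are also made in other epithelia of the gut tube, and PROX1 marks lymphatic endothelium.

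Total counts ran from 16398729 to 20159132 in treated and from 15864399 to 19153845 in control libraries. Treated libraries resembled each other more (correlations of log2 CPM from 0.968 to 0.979) than controls did (0.925 to 0.962). Controls 2 and 4 correlated least with each other (0.925), so results that rest on them are given with and without both. With controls 1 and 3, control 2 correlated at 0.951 and 0.962 and control 4 at 0.938 and 0.954, so control 4 was the farther from both. Control 2 held the most RNA of the T and NK cell list (82.5 CPM summed over 7 tested genes, against 24.4 to 42.4 CPM in controls 1, 3 and 4). Of this sum 50.6 CPM was Ptprc, a gene of leukocytes in general. CPM are counts scaled to a common library total with TMM factors, and Alb, the hepatocyte albumin gene, stood at 117620 ± 8534 CPM in treated and 116450 ± 21782 CPM in control libraries (SD, n = 4 each).

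Of the 9 genes, 2 rose in treated livers, Cebpa and Foxa3, and none fell (edgeR quasi-likelihood test, Benjamini-Hochberg adjusted p under 0.05 over 12861 genes). Over all tested genes 5.46% rose and 3.75% fell, 9.21% in either direction. At an unadjusted p under 0.05, edgeR gave the same 2 higher and 1 lower, Onecut1, against 29.4% of all tested genes at that threshold. The DESeq2 Wald test and limma-voom each called 2 of the 9 genes. DESeq2 called 2160 genes in all, 9.42% of the 22927 with any count, and limma-voom 2126, 16.5% of the 12861 that passed the filter. These 2 shares have different bases, since the DESeq2 total also holds genes of very low count. The treated and control values of Cebpa and of Foxa3 did not overlap, and those of the other 7 genes did. Over all tested genes 18.9% had no overlap. The median log2 fold change of the 9 genes was 0.18, with 7 of them above 0, against a median of -0.04 and 46.7% of genes above 0 over all tested genes.

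**Figure D1:**
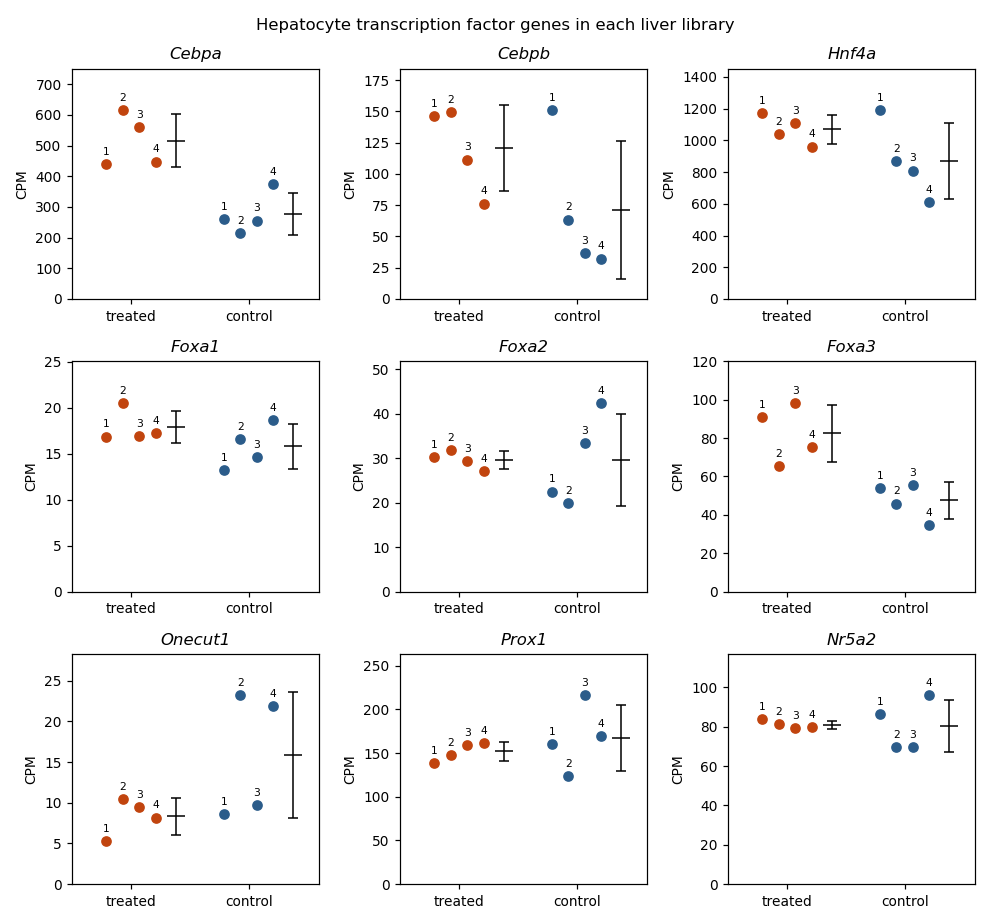
CPM of each of the 9 genes in the 4 treated (left, orange) and 4 control (right, blue) libraries, numbered by replicate, with the mean and SD of each group as a black bar. The treated points of Cebpa and Foxa3 all lie above the control points, control 1 stands level with the highest treated libraries for Cebpb, and controls 2 and 4 stand above all others for Onecut1.

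Cebpa encodes C/EBP alpha, a basic leucine zipper factor of gluconeogenic, glycogen and nitrogen metabolism that also restrains hepatocyte division. It is an intronless gene (ENSMUSG00000034957, GRCm38 chromosome 7, 35119293 to 35121928, plus strand). The 4 treated libraries held 440.1, 615.9, 560.4 and 448.1 CPM of Cebpa, against 259, 214, 256 and 374 CPM in the 4 controls. Every treated library lay above every control, and control 4 came closest. The log2 fold change was 0.90 (SE 0.20, 1.87-fold, edgeR adjusted p = 0.0262), ranked 539 of the tested genes by p. With single libraries left out it ran from 0.81 to 1.09, and the call held in 4 of 8 such fits: it was lost without treated library 2 (adjusted p = 0.0679), treated library 3 (adjusted p = 0.0862), control 2 (adjusted p = 0.0545) or control 3 (adjusted p = 0.0773). Without controls 2 and 4 together the log2 fold change of Cebpa was 1.01 (adjusted p = 0.0200).

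Fold changes in this comparison ran with the base composition and length of genes, and Cebpa lies at an extreme of base composition. Across tested genes, which are not independent replicates, the rank correlation of fold change was 0.33 with GC content and -0.24 with length. Cebpa transcripts are 61.2% G or C, above 98.5% of tested genes, and the smooth trend of all genes on GC content and length was 0.34 on the log2 scale at its values. With that trend removed as an offset the log2 fold change of Cebpa was 0.56 (SE 0.20, adjusted p = 0.131) and the call ended. In this fit 475 genes were called, 3.69% of those tested, and none of the 9. The share of all genes called also moved as single libraries were left out, at 3.52, 3.51, 1.4 and 3.61% without treated libraries 1 to 4 and 8.58, 4.49, 3.04 and 17.8% without controls 1 to 4, and it was 8.07% without controls 2 and 4, 7.34% with the replicate number as a block, 3.2% with the block and the trend removed, and 3.29% by limma on log2(FPKM + 1) with no filter. Whether base composition made part of the difference was not tested.

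Cebpb encodes C/EBP beta, the paralog induced in the acute phase response, in fasting and after partial hepatectomy. It is intronless too (chromosome 2, 167688915 to 167690418, plus strand). The treated libraries held 146, 149.7, 111 and 76.2 CPM of Cebpb and the controls 151, 63.5, 36.9 and 32.3 CPM. Control 1 alone among controls stood with the highest treated libraries, and controls 2 to 4 lay below all treated ones. The log2 fold change was 0.77 (SE 0.50, adjusted p = 0.344), and without control 1 it was 1.45 (adjusted p = 0.0308), so that 1 library decided the call. Control 1 was also highest among controls for Klf15 (276 CPM, against 86.6 to 96.7 CPM in the other controls), Cebpd (26.7 against 3.52 to 15.4 CPM) and Dusp1 (108 against 22.0 to 35.5 CPM), 3 genes that respond to glucocorticoids or stress and were picked here after their values were seen. Their part in the Cebpb value of control 1 was not tested.

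Cebpb has the most extreme base composition of the 9 genes. Its transcript is 67.2% G or C, above 99.9% of tested genes, and at 1504 bases only 9.17% of them are shorter. The trend on GC content and length at its values was 0.69, and with the trend removed the log2 fold change of Cebpb was 0.13 (SE 0.43, adjusted p = 0.878). Of its exonic bases, 312 overlap Tmem189 on the opposite strand, and the strand setting of the counting is not given in the sources used here. Tmem189 had a mean of 110 counts a library, against 587 to 2922 counts for Cebpb.

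Foxa3 encodes the FOXA paralog that is most abundant in adult liver. It lies on chromosome 7 (ENSMUSG00000040891, 19013284 to 19023538, minus strand). The treated libraries held 90.8, 65.5, 98.4 and 75.4 CPM of Foxa3 and the controls 54.1, 45.8, 55.7 and 34.4 CPM. Treated library 2 was the lowest of its group and still above control 3, the highest control. The log2 fold change was 0.80 (SE 0.18, 1.74-fold, adjusted p = 0.0281), and it ran from 0.67 to 0.91 with single libraries left out. The call held without treated library 2, control 1 or control 4 and was lost in the other 5 fits, with adjusted p up to 0.0919, which was reached without treated library 3.

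Less of the Foxa3 difference lay along the trend on GC content and length. Its transcripts are 54.4% G or C and 2037 bases long, the trend was 0.14 at these values, and with it removed the log2 fold change of Foxa3 was 0.65 (SE 0.19, adjusted p = 0.0830). Without controls 2 and 4 it was 0.60 (adjusted p = 0.0712). Each of these fits ended the call with the direction kept.

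Foxa1 and Foxa2 encode the other FOXA pioneer factors, which open chromatin at liver enhancers from early gut endoderm on. Treated libraries held 16.8, 20.5, 16.9 and 17.3 CPM of Foxa1 and the controls 13.2, 16.6, 14.6 and 18.7 CPM, and the groups overlapped (log2 fold change 0.18, SE 0.14, adjusted p = 0.427). For Foxa2 the treated libraries held 30.3, 31.8, 29.3 and 27.1 CPM and the controls 22.5, 19.96, 33.3 and 42.5 CPM. The Foxa2 controls lay in a low pair, 1 and 2, and a high pair, 3 and 4, on either side of the treated range. The log2 fold change of Foxa2 was 0.00 (SE 0.22, adjusted p = 0.992), a value whose sign turned with the scaling, at -0.03 with library size alone.

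As FPKM, which divides by gene length and so allows levels of different genes to be compared, Foxa3 was the most abundant of the 3 FOXA genes in all 4 treated and in 3 of 4 control libraries. Foxa3 made up 71.4, 62.1, 73.5 and 69.0% of their summed FPKM in treated libraries, against 66.4, 62.6, 59.7 and 41.8% in controls. The exception was control 4, where Foxa2 stood at 17.8 FPKM and Foxa3 at 16.8 FPKM. The summed FPKM of the 3 genes ran from 52.1 to 61.9 in treated and from 38.3 to 45.9 in control libraries, without overlap. Foxa3 was most of this sum except in control 4, and the FPKM of Foxa1 and of Foxa2 each overlapped between the groups.

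The promoters of the 2 genes that rose are shown with that of Cebpb, the paralog of Cebpa that did not pass the test. Each is the 250 bases before the annotated start from RefSeq on GRCm38.p6, in the direction of the gene, with capitals at matches on either strand to the TATA box, spelled TATAAA, the CCAAT box, spelled by its name, and the GC box, spelled GGGCGG, whose matches can overlap each other.
Cebpa, chr7:35119043-35119292, plus strand: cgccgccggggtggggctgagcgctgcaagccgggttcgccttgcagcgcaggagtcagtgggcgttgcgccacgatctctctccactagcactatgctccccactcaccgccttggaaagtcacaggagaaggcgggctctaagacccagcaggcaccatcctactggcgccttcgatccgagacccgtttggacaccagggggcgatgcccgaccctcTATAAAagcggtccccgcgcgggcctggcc
Foxa3, chr7:19023540-19023789, minus strand: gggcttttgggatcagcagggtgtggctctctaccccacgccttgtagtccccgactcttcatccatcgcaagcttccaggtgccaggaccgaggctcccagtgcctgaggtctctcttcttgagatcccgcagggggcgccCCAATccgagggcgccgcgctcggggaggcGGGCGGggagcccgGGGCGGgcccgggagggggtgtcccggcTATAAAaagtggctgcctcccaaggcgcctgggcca
Cebpb, chr2:167688665-167688914, plus strand: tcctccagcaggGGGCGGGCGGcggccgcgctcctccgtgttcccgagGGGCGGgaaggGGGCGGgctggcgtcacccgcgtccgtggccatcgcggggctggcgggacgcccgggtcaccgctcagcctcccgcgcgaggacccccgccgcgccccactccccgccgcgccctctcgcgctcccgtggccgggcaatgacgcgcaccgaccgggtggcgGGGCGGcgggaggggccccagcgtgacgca

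The Cebpa and Foxa3 promoters have TATAAA on the gene's strand, with its first base 30 and 36 bases before the start. Of the 9 genes, which had 14 such windows, these were the only ones with that hexamer on that strand between 40 and 20 bases before the start, a feature of 1.99% of the 32851 promoters searched and of 1.27% of those of tested genes, and this window was chosen after the sequences were seen. Anywhere in the 250 bases and on either strand, TATAAA was found for 5 of the 9 genes, CCAAT for 5 and GGGCGG for 7, counting a gene if any of its windows held the letters. Of single promoters of tested genes 7.01% held TATAAA, 35.1% CCAAT and 55.2% GGGCGG, and of all promoters 12.4, 33.8 and 32.7%. Counts of genes and shares of promoters are not on the same footing, since some genes have several windows. The Cebpb window holds 5 GGGCGG and is 81.6% G or C, against 66.4% for Cebpa, 68.8% for Foxa3 and a median of 52.4% over all promoters. The other motifs searched, on either strand, were a C/EBP core (TTGCNNAA), an HNF4 repeat (CAAAGTNCA), an HNF1 site (GTTAAT), a FOXA site (TGTTTNC), an ONECUT site (ATCNATA), an E-box (CACGTG) and a D-box (TTANGTAA), none of which was found in the windows of Cebpa, Foxa3 or Cebpb, and which 9.56, 1.19, 6.43, 17.8, 4.70, 6.02 and 2.06% of promoters hold. These matches describe the letters and do not show binding.

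Hnf4a encodes the nuclear receptor that is needed for most of the adult hepatocyte programme, from apolipoproteins to bile acid and clotting factor genes. It had the highest mean FPKM of the 9 genes in both groups. The treated libraries held 1171, 1040.2, 1107 and 961 CPM of Hnf4a and the controls 1191, 867, 809 and 613 CPM. Control 1 stood above all treated libraries and the other 3 controls below all of them. The log2 fold change was 0.30 (SE 0.20, adjusted p = 0.358), and it was 0.49 without control 1 (adjusted p = 0.102) and 0.10 without controls 2 and 4 (adjusted p = 0.777). Cebpb and Hnf4a had the same order of controls, from 1 down to 4.

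Onecut1 encodes HNF6, a cut-homeodomain factor of liver and bile duct development that is also active in adult hepatocytes. It had the lowest mean FPKM of the 9 genes in both groups. The treated libraries held 5.25, 10.4, 9.47 and 8.18 CPM of Onecut1 and the controls 8.65, 23.2, 9.74 and 21.9 CPM. Controls 2 and 4 stood above all treated libraries, and controls 1 and 3 lay within the treated range. The log2 fold change was -0.93 (SE 0.36, edgeR adjusted p = 0.129), and without controls 2 and 4 it was -0.14 (adjusted p = 0.773), so the difference rested on those 2 libraries. Of its exonic bases 2171 overlap Gm20649 on the same strand, a gene absent from the deposited table. Whether the overlap changed the Onecut1 counts is not known from the sources used here.

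Prox1 encodes a homeodomain factor of hepatoblast outgrowth that can repress HNF4A and NR5A2 at the Cyp7a1 promoter. Prox1 stood at 139, 148, 159 and 162 CPM in treated libraries and in the controls at 160.0, 124, 216 and 170 CPM, and the treated range lay inside that of the controls. Its log2 fold change was -0.14 (SE 0.17, adjusted p = 0.605), and 0.00 with the trend on GC content and length removed. Of its exonic bases 133 overlap Prox1os on the opposite strand, which had a mean of 50.5 counts a library, against 2390 to 3436 for Prox1.

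Nr5a2 encodes LRH-1, a nuclear receptor of bile acid and cholesterol handling. Nr5a2 stood at 83.8, 81.5, 79.2 and 80.04 CPM in treated libraries and in the controls at 86.5, 69.5, 69.8 and 96.0 CPM, so the treated libraries fell between a low and a high pair of controls. Its log2 fold change was 0.01 (SE 0.13, adjusted p = 0.961), and -0.03 with library size alone.

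**Figure D2:**
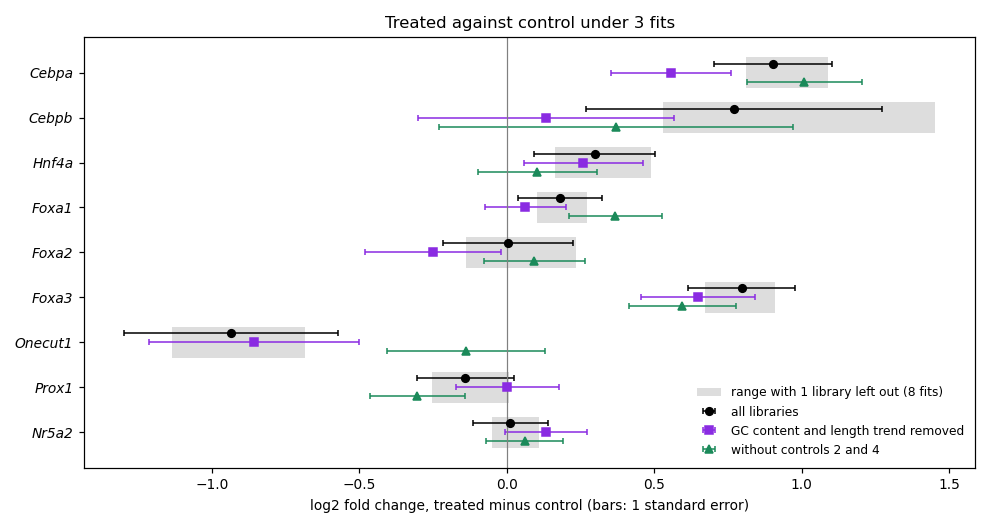
Log2 fold change of treated over control libraries for each gene, with 1 standard error, with all libraries (black circles), with the trend on GC content and length removed (purple squares) and without controls 2 and 4 (green triangles), over the range of the 8 fits with 1 library left out (grey). Cebpa stands at 0.90, 0.56 and 1.01 and Foxa3 at 0.80, 0.65 and 0.60, while Cebpb drops to 0.13 once the trend is removed and Onecut1 stands at -0.14 without controls 2 and 4.

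All 9 genes varied less among treated than among control libraries. The coefficient of variation of CPM ran from 2.498% for Nr5a2 to 28.5% for Cebpb in treated libraries, and from 15.2% for Foxa1 to 77.7% for Cebpb in controls. Over all tested genes it was lower in treated libraries for 67.8%, with medians of 15.4% in treated and 21.3% in control libraries, so most genes shared the direction. Foxa2 spanned 1.18-fold between its lowest and highest treated library and 2.13-fold among controls, and Cebpb 1.96-fold among treated and 4.68-fold among control libraries.

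**Figure D3:**
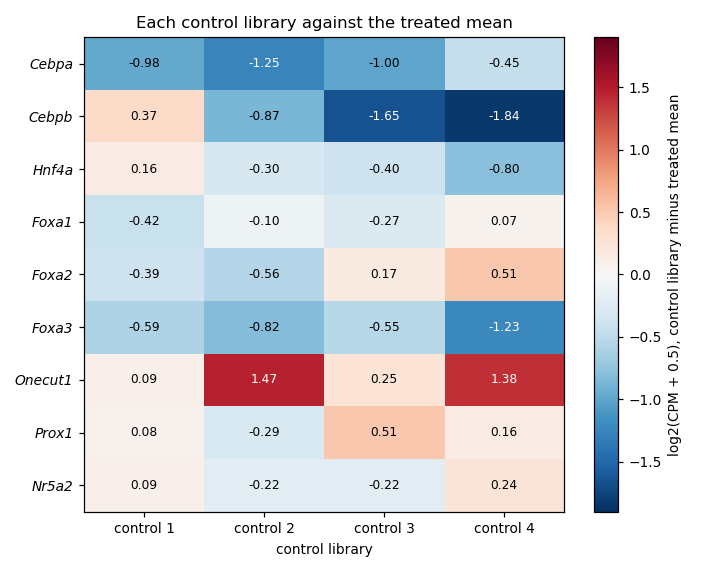
Log2(CPM + 0.5) of each of the 9 genes in each control library minus the mean of the 4 treated libraries, red where the control is higher and blue where it is lower. Cebpa and Foxa3 are blue in all 4 controls, Cebpb runs from 0.37 in control 1 to -1.84 in control 4, and Onecut1 stands at 1.47 in control 2 and 1.38 in control 4.

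Each control library departed from the treated mean in its own way. Control 1 was nearest to it, with a mean absolute difference over the 9 genes of 0.35 on the log2(CPM + 0.5) scale, and its widest differences were in Cebpa (-0.98) and Foxa3 (-0.59). Control 4 was farthest, at 0.74. It was the highest control for Cebpa, Foxa1, Foxa2 and Nr5a2 and the lowest for Cebpb, Hnf4a and Foxa3. Control 2, at 0.65, was the lowest control for Cebpa, Foxa2, Prox1 and Nr5a2 and the highest for Onecut1.

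By mean FPKM the order of the 9 genes was the same in both groups, Hnf4a, Cebpa, Cebpb, Foxa3, Prox1, Nr5a2, Foxa2, Foxa1 and Onecut1. Mean FPKM ran from 218 ± 19.8 for Hnf4a to 1.998 ± 0.57 for Onecut1 in treated and from 182 ± 46.6 to 3.98 ± 2.11 in control libraries (SD, n = 4 each). Among treated libraries only the neighbours Hnf4a and Cebpa, and Nr5a2 and Foxa2, had ranges that overlapped. Among controls only Prox1 and Nr5a2, and Foxa2 and Foxa1, had ranges that did not.

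Hnf4a and Cebpa lay close together in treated livers, with Cebpa at 193 ± 36.7 FPKM in treated and 106 ± 23.9 FPKM in control libraries. The ratio of Cebpa to Hnf4a FPKM was 0.69, 1.08, 0.93 and 0.85 in treated libraries and 0.40, 0.45, 0.58 and 1.12 in controls, and control 4 had the highest ratio of all. The ratio of Cebpa to Cebpb ran from 1.72 to 3.35 in treated and from 0.98 to 6.61 in control libraries, so the treated range lay inside that of the controls.

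**Figure D4:**
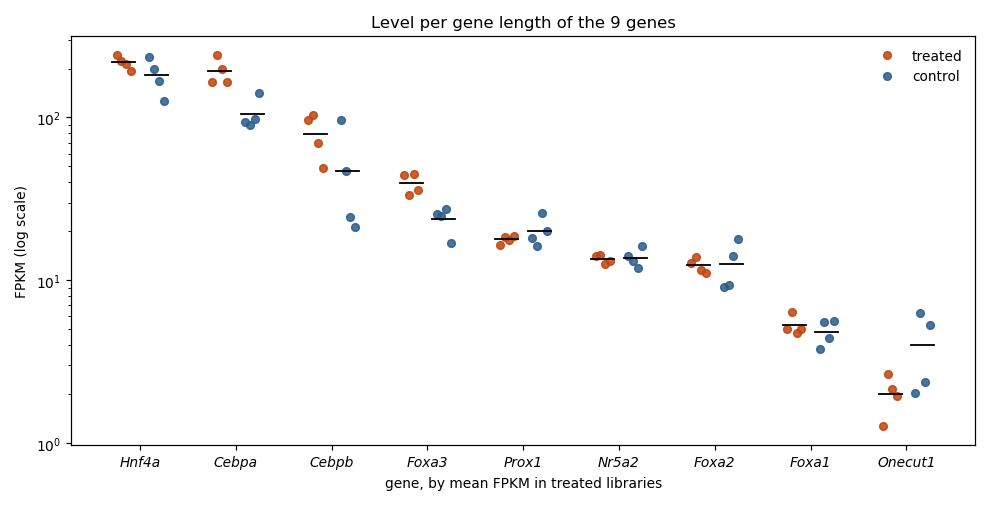
FPKM of the 9 genes on a log axis in the 4 treated (orange) and 4 control (blue) libraries, ordered by mean FPKM in treated libraries, with group means as black lines. Hnf4a leads with a mean of 218 FPKM in treated and 182 FPKM in control libraries, and Onecut1 is lowest at 1.998 FPKM in treated and 3.98 FPKM in control libraries.

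Other liver-enriched factors and partners of the 9 genes were called at a share near that of all genes. Of 31 tested genes, 3 rose and none fell by the adjusted p, which is 9.68% against 9.21% of all genes (edgeR), while 9 were higher and 3 lower at an unadjusted p under 0.05, a threshold that 29.4% of all tested genes passed. DESeq2 called 5 higher and 1 lower and limma-voom 6 higher and 1 lower. The 3 that rose are orphan or xenobiotic nuclear receptors, but others of that kind on the list were not called by edgeR. Among these were Nr1i2 (log2 0.26, adjusted p = 0.210), Nr2f2 (log2 0.40, adjusted p = 0.113) and Nr2f1, which stood lower (log2 -0.87, adjusted p = 0.214). Nr2f6, the COUP family receptor EAR2, stood at 56.4 ± 4.05 CPM in treated and 22.1 ± 3.97 CPM in control libraries (log2 1.35, SE 0.14, adjusted p = 0.00267). Esrra, the estrogen-related receptor of mitochondrial genes, stood at 35.9 ± 2.49 CPM in treated and 16.2 ± 3.52 CPM in control libraries (log2 1.15, SE 0.15, adjusted p = 0.00557). Nr1i3, the xenobiotic receptor CAR, stood at 35.1 ± 6.20 CPM in treated and 19.4 ± 3.80 CPM in control libraries (log2 0.85, SE 0.18, adjusted p = 0.0220). The calls of Nr2f6, Esrra and Nr1i3 held with the trend on GC content and length removed.

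Target genes of the 9 factors, taken from general knowledge, were called in mixed directions. Of 20 tested targets of HNF4A, edgeR called 2 higher (Apoa4 and Apom) and 1 lower (Mttp), with a median log2 fold change of 0.08, while DESeq2 called 4 higher and 1 lower and limma-voom 3 higher and 1 lower. Of 15 C/EBP targets of intermediary metabolism, edgeR called Fabp1 and Gys2 higher and none lower, with a median of -0.07, while 2 were lower at an unadjusted p under 0.05 and DESeq2 and limma-voom each called 2 higher and 2 lower. Gys2, the liver glycogen synthase, stood at 159 ± 16.3 CPM in treated and 96.0 ± 24.3 CPM in control libraries. Serpina1a (log2 -0.74, adjusted p = 0.0653) and G6pc (log2 -1.52, adjusted p = 0.0741) stood lower without an edgeR call. These 2 were picked here after their values were seen. With the trend removed, 0 of the HNF4A targets and 1 of the C/EBP targets, Fabp1, were called.

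None of 14 tested acute phase targets of C/EBP beta was called by edgeR, their median log2 fold change was -0.37, and 1 was higher and 4 lower at an unadjusted p under 0.05. Of the acute phase targets DESeq2 called 1 higher and 4 lower and limma-voom 1 higher and 1 lower. Hp, haptoglobin, stood at 3191 ± 685 CPM in treated and 4252 ± 2429 CPM in control libraries, and Hpx, hemopexin, at 3245 ± 508 CPM in treated and 4006 ± 2053 CPM in control libraries. The acute phase targets summed to 21502 CPM in control 2, above the 11048 to 14324 CPM of the treated and the 11411 to 15392 CPM of the other control libraries.

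None of 14 tested FOXA targets was called by edgeR, with 1 higher and 2 lower at an unadjusted p under 0.05. DESeq2 called 2 and limma-voom 1, all lower. The median log2 fold change of the 14 was 0.09, with 9 of 14 above 0. G6pc, which is also on the C/EBP list, stood at 138 ± 30.4 CPM in treated and 397 ± 207 CPM in control libraries. Its groups overlapped (log2 -1.52, edgeR adjusted p = 0.0741). Apoa1, of high-density lipoprotein, stood at 7070 ± 2841 CPM in treated and 6356 ± 1850 CPM in control libraries.

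Of 11 tested targets of NR5A2 and PROX1, 3 rose and 1 fell (36.4%, against 9.21% of all genes by edgeR). Their median log2 fold change was 0.58, with 6 of 11 above 0, and it was 0.16 with the trend on GC content and length removed. Cyp7a1, whose product controls the rate of bile acid synthesis from cholesterol, stood at 265, 238, 467 and 288 CPM in treated and 81.9, 49.9, 112 and 102 CPM in control libraries (log2 1.86, SE 0.29, adjusted p = 0.00942). Scarb1, the receptor for high-density lipoprotein, stood at 330, 292, 312 and 302 CPM in treated and 145, 84.5, 184 and 105 CPM in control libraries (log2 1.25, SE 0.22, adjusted p = 0.0130). The treated and control values did not overlap for either gene, while those of Nr5a2 and Prox1 themselves did. Apom, which is also on the HNF4A list, was the third that rose, and Slc10a2, a sodium-dependent bile acid transporter, fell by 2.01 on the log2 scale (SE 0.37, adjusted p = 0.0164). The Apom call was lost with the trend on GC content and length removed (log2 0.35, adjusted p = 0.124), and those of Cyp7a1, Scarb1 and Slc10a2 held.

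By a rule on likeness over the 8 libraries, the genes whose log2(CPM + 0.5) ran most like that of Cebpa among 11939 tested genes were Rdh7 (Pearson r = 0.99), Slc27a4 (0.98) and Bri3bp (0.98). Those most like Foxa3 were Rps13-ps2 (0.97) and Rpp25l (0.97). These are the highest of many correlations, across libraries that hold the group difference itself, and so only describe. Rps13-ps2 is a pseudogene of a ribosomal protein gene and could share reads with its parent.

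Some markers of other cell types were called lower in treated livers by edgeR. The summed levels of the macrophage, endothelial and cholangiocyte lists overlapped between the groups, and those of the T and NK cell list did not. In bulk liver, fewer cells of a type and less RNA per cell cannot be told apart. Of 15 tested Kupffer cell and macrophage markers Timd4 and Adgre1 fell and none rose (13.3%, against 9.21% of all genes). The 15 summed to 484 to 943 CPM in treated and 713 to 1687 CPM in control libraries. Their median log2 fold change was -0.72, with 1 of 15 above 0, and DESeq2 and limma-voom each called 6 lower. Of 7 tested T and NK cell markers Nkg7, Ptprc and Cd3g fell (42.9%). The 7 summed to 17.4 to 19.8 CPM in treated and 24.4 to 82.5 CPM in control libraries. Their median log2 fold change was -1.28, with 0 of 7 above 0. Limma-voom called 3 lower, and DESeq2, run without the filter on low counts, called 6 of the 10 listed lower. Of 12 tested endothelial markers Pecam1 and Tek fell (16.7%). The 12 summed to 381 to 585 CPM in treated and 559 to 719 CPM in control libraries. Their median log2 fold change was -0.33, and DESeq2 and limma-voom each called 2 lower. Pdpn, Ccl21a and Mmrn1 of lymphatic endothelium did not pass the filter on low counts. With the trend on GC content and length removed, 0 macrophage, 1 T and NK cell (Nkg7), 1 endothelial (Pecam1) and 1 stellate cell marker (Pdgfra) were called.

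Of 13 stellate cell markers Pdgfra fell, with a median log2 fold change of -0.18 for the list, while DESeq2 called 2 and limma-voom 3 lower. None of 6 tested cholangiocyte markers was called by edgeR, at an unadjusted p under 0.05 or by DESeq2 or limma-voom, and Krt7 and Krt19 did not pass the filter. Their sums were 37.2 to 52.3 CPM in treated and 42.1 to 71.9 CPM in control libraries, with Spp1 at 16.3 ± 8.19 CPM in treated and 19.2 ± 3.65 CPM in control libraries. With control 2 left out, a fit that called 4.49% of all genes, 0 macrophage markers and 1 T and NK cell marker were called. In the same edgeR fit Cebpa stood at a log2 fold change of 0.81 (adjusted p = 0.0545) and Foxa3 at 0.79 (adjusted p = 0.0616). Without controls 2 and 4 together, 8.07% of all genes were called, with 3 macrophage and 3 T and NK cell markers, all lower. The part of these cells in the values of the 9 genes was not tested.

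Of 15 tested secreted hepatocyte proteins edgeR called 1, the fibrinogen chain Fga, lower at 3715 ± 165 CPM in treated and 5692 ± 605 CPM in control libraries, and the sum over them ran from 171244 to 194463 CPM in treated and from 150451 to 200438 CPM in control libraries. DESeq2 and limma-voom each called 3 of these genes, all lower. The edgeR call of Fga was lost with the trend on GC content and length removed (adjusted p = 0.0795) and in 6 of 8 fits that omit 1 library. Of 5 tested fetal or dedifferentiation markers Gpc3 rose, at 1.47 ± 0.53 CPM in treated and 0.48 ± 0.16 CPM in control libraries, while H19, Igf2 and Dlk1 did not pass the filter on low counts. The Gpc3 call was lost with the trend removed (adjusted p = 0.0541), without controls 2 and 4 (adjusted p = 0.126) and in 7 of 8 such fits.

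Among 14 tested immediate early genes none was called by edgeR, DESeq2 or limma-voom, and 1 was higher at an unadjusted p under 0.05. They summed to 1154 CPM in treated library 2, against 177 to 273 CPM in the other treated libraries and 215 to 404 CPM in controls. Treated library 2 was also the highest library for Cebpa and for Foxa1, and without it the log2 fold change of Cebpa was 0.83 (adjusted p = 0.0679) and that of Foxa1 0.12 (adjusted p = 0.654). What the immediate early genes have to do with these values was not tested.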

How the data were processed

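Liver RNA was extracted with Trizol, selected on oligo-dT beads and made into libraries with a NEBNext Ultra RNA kit, per the labels' protocols. Deposited were each library's raw gene counts and its FPKM values. GRCm38, DESeq2 1.32.0, HTSeq 0.13.5 and HISAT2 are named without a role, per the submitters' processing notes; no source used here gives the annotation release or strand setting. The deposited FPKM equals the count divided by gene length and library total, and that length equals the union of GENCODE exons for the 9 genes.

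These counts went into edgeR 4.0.16 under R 4.3.3: filterByExpr (minimum count 10, minimum total count 15), TMM factors, and the robust quasi-likelihood F test of treated against control over 12861 genes, adjusted by Benjamini-Hochberg and called under 0.05. Standard errors come from the F statistic. The fit was also run on simulated counts with the same dispersion in both groups, unlike these libraries, and its outcome is not used here. GC content and length offsets were natural splines of each library's log2 deviations. Alternatives used DESeq2 1.42.0 and limma 3.58.1, with limma also run on FPKM (pseudocount 1 or 0.1, and a mean of 0.5 FPKM as the minimum).

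The 9 genes and the 14 lists of other genes were chosen with earlier results of these data known. All 9 are named. Of each list up to 4 called genes of smallest adjusted p, or the 2 most abundant if none was called, are named, and for each called gene of the 9 the 3 most correlated genes. Some genes that this rule names are not reported here. Other genes were picked after their values were seen. No 2 libraries of a group agreed within counting noise (chi-square per degree of freedom at least 31.6).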

Additional observations from a re-analysis of the deposited data

Results flagged for a closer look

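A library far from the other 3 of its group was sought in 74 groups of 4 values. It was found 6 times, where chance gives about 1 in 20 groups, and 1 of the 6 was among the 9 genes. Foxa1 stood at 20.5 CPM in treated library 2, against 16.8 to 17.3 CPM in the other treated libraries. In the same library Zfp36, an immediate early gene, stood at 208 CPM, against 52.7 to 77.6 CPM. Dusp1, of the same list, stood at 108 CPM in control 1, against 22.0 to 35.5 CPM in the other controls, and Hpx at 7056 CPM in control 2, against 2596 to 3264 CPM. Nr1i3 was low in control 4, at 13.8 CPM against 20.997 to 21.6 CPM. Pdgfra stood at 8.10 CPM in treated library 1, against 6.57 to 6.75 CPM.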

How the results depend on the processing

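The count of called genes, 1184 with all libraries, was 475 with GC content and length offsets, 2160 with the DESeq2 Wald test, 2126 with limma-voom, 787 on log2(FPKM + 0.1) and 754 on log2(FPKM + 1) with no filter, and ran from 183 (without treated library 3) to 2330 (without control 4) with a library left out. Of the 9 genes, 2 called with all libraries, 0 were called with GC content and length offsets and on log2(FPKM + 1) with no filter, 1 without controls 2 and 4, and 0 to 3 with a library left out, the 3 (Cebpa, Foxa3 and Cebpb) without control 1. The 2 genes without overlap were 2 on FPKM and on CPM without TMM factors too. Beyond the fits given above, Cebpa was not called on unfiltered log2(FPKM + 1) (adjusted p = 0.0543), nor was Foxa3 (adjusted p = 0.0709). Fold changes of the other named genes followed through the fits kept their direction and their side of the threshold in 484 comparisons with an alternative. They lost the call in 141. List counts moved by over 1.5 times in 110 and not in 212. The causes were not tested.

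Replicate numbers showed little sign of pairing the libraries, in a check that cannot exclude it: the correlations of deviations at the same number were 0.18, 0.06, -0.01 and 0.07. Treated libraries 1 and 2 matched the control of their own number best, and treated libraries 3 and 4 did not. With the replicate block 944 genes and 2 of the 9 (Cebpa adjusted p = 0.04998, just under the threshold) were called, and with the block and the offsets 411 genes and 1 of the 9, Foxa3 (adjusted p = 0.0453).

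Signs turned for 3 of the 9 genes and for 4 of the other named genes followed through the fits, none of them called. Foxa2, at 0.00, stood at -0.029 with library size alone, -0.016 with upper quartile factors, -0.25 with offsets, -0.18 with offsets and replicate block, and from -0.14 to 0.24 with a library left out. Prox1, at -0.14, stood at 0.0020 with offsets, 0.028 with offsets and replicate block and from -0.25 to 0.0065 with a library left out. Nr5a2, at 0.01, stood at -0.025 with library size alone, -0.0031 with upper quartile factors, -0.017 in the 3 fits on FPKM and from -0.050 to 0.11 with a library left out. Hpx, at -0.30, stood at 0.033 without controls 2 and 4 and from -0.46 to 0.13 with a library left out, and Dusp1, at 0.57, from -0.50 to 1.28. Alb, at 0.01, stood at -0.019 with library size alone, -0.0031 with upper quartile factors, -0.17 without controls 2 and 4, -0.027 with limma-voom, -0.011 in the 3 fits on FPKM and from -0.094 to 0.086 with a library left out. Apoa1, at 0.15, stood at -0.21 with offsets, -0.23 with offsets and replicate block and from -0.058 to 0.35 with a library left out. With totals of 15864399 to 20159132 counts, Onecut1 rested on 105 to 449 counts a library, the fewest of the 9 genes.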
